A study of Mus musculus with 9 samples.

Results

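ADAMTS proteases are secreted zinc metalloproteases with thrombospondin repeats that cut proteins of the extracellular matrix. Several of them cleave hyalectans, the large proteoglycans that bind hyaluronan and fill the space between neurons and astrocytes. Others trim procollagens or sit on fibrillin microfibrils. In the brain their substrates include brevican, neurocan and versican, which are components of perineuronal nets and of the diffuse matrix. The 10 genes described here are Adamts1, Adamts2, Adamts4, Adamts5, Adamts6, Adamts7, Adamts9, Adamts10, Adamts12 and Adamts15, found by symbol among the 22100 rows of the deposited table. They were selected on measured values, since the list was drawn up with earlier fold changes of these libraries at 90 min and 3 days known. The values below therefore describe them, and the p-values beside them, from a fit over all genes, are no independent evidence.

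The libraries were made from poly(A)-selected RNA of cultured mouse cortical astrocytes, grown on poly-L-lysine in high-glucose DMEM with fetal bovine serum and passaged before confluence. Of the 9 libraries, 3 came from unstimulated cells titled with the 3 day time, 3 from cells collected after 90 min in 50 µM noradrenaline, and 3 from cells exposed for the same 90 min, moved to medium without the ligand and collected at 3 days. The labels give neither strain, age or sex of the animals nor whether replicates were separate cultures, so the p-values reflect only the spread among libraries, which may be technical. Controls matched to the 90 min collection were not analysed here, and the labels do not say if the medium of controls was replaced. Treatment therefore cannot be told apart from collection time at 90 min, or from the medium change at 3 days.

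Totals ran from 15529158 to 18729980 estimated counts per library, and levels are given as CPM, the count scaled to library size with TMM factors. The limit set by a count of 0, taken as 3 counts, was 0.158 to 0.190 CPM and covers counting error only. All 9 listed astrocyte markers were measured, with a summed level of 591 to 617 CPM in controls, 573 to 599 CPM at 90 min and 574 to 585 CPM at 3 days, although the filament gene Gfap was at 1.13 ± 0.292 CPM (SD, n = 3) in controls. Fibroblast and meningeal markers summed to 1608 to 1809 CPM in controls, 1477 to 1801 CPM at 90 min and 1331 to 1495 CPM at 3 days. Most of these sums was Col1a1, at 1418 ± 105, 1316 ± 181 and 1116 ± 96.8 CPM. Other markers of that list were lower than Col1a1 but in part well expressed. In controls Pdpn was at 101 ± 4.47, Dcn at 87.5 ± 0.808, Twist1 at 44.5 ± 2.34 and Foxc1 at 13.2 ± 0.415 CPM. Lum was at 7.96 ± 0.556, Pdgfra at 7.08 ± 0.254 and Col3a1 at 4.28 ± 0.594 CPM, and Thy1 did not pass the count filter. Microglial markers reached at most 10.1 CPM in sum, at 90 min, where most of it was Tmem119 (8.15 ± 1.62 CPM). In bulk RNA, fewer cells of a type and less RNA per cell cannot be told apart. Among the 90 min libraries, number 3 stood apart: the chi-square per degree of freedom against libraries 1 and 2 was 5.46 and 7.13, beside 2.86 between those. Without it no ADAMTS gene listed above gained or lost a call in any of the 3 comparisons.

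Promoter sequence was at hand for 4 of the 10 genes (RefSeq, build GRCm38.p6). The 250 bases before the start of Adamts1, Adamts9 and Adamts12 are printed 5′ to 3′ because they are the members with a match to TGACG, the core of the cyclic AMP response element (CRE) through which cyclic AMP, a second messenger of noradrenaline, is known to act. Capitals mark TGACG and the TATA box letters TATAAA. Adamts1 lies on the minus strand at chr16:85803114-85803363, Adamts9 on the minus strand at chr6:92943535-92943784 and Adamts12 on the plus strand at chr15:11064523-11064772.
Adamts1: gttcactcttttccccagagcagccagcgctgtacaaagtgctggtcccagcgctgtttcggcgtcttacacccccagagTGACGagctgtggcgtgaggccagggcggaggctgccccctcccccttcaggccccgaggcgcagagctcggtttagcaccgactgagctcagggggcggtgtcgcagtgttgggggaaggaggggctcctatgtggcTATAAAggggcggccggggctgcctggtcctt
Adamts9: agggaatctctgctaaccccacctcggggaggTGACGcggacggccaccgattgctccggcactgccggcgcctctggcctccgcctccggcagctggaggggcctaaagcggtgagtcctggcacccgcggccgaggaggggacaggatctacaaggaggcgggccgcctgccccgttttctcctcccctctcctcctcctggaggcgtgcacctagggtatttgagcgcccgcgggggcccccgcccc
Adamts12: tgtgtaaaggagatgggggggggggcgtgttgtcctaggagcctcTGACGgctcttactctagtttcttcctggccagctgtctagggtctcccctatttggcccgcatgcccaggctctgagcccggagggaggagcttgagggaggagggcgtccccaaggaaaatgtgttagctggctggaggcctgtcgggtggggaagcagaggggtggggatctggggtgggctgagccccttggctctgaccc

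The TGACG match began 170 bases before the start in Adamts1, 218 in Adamts9 and 205 in Adamts12, in each case on the gene's strand. On either strand, TGACG was present in 17.8% of the 32851 promoter windows of the same length in that table. The complete CRE, TGACGTCA, which contains TGACG, occurred in 1.55% of windows and in none of the 4 members. Nor did the AP-1 letters TGANTCA (6.75% of windows) or the NR4A site AAAGGTCA (1.34%) occur in these 4 windows. TATAAA was found in 12.4% of windows and, among the 4, in Adamts1, where it began 32 bases before the start. Adamts2 held no match to any of these motifs. At 90 min the 3 genes that share TGACG had log2 fold changes of 4.38 (Adamts1), 0.31 (Adamts9) and 0.31 (Adamts12). Adamts12 was not called (edgeR adjusted p = 0.299), and neither was Adamts2 (log2 0.04). These matches describe letters in a window and do not show that a factor binds there.

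Levels are first given per kilobase (kb) of the longest protein-coding transcript (GENCODE vM21), which allows genes to be compared with each other. In unstimulated cells Adamts10 was the highest, at 16.8 ± 1.85 CPM per kb (SD, n = 3), and made up 47.9% ± 2.70 of the summed level of the 10 genes. Adamts9 followed at 6.98 ± 0.0974 CPM per kb, and Adamts1 was the third at 2.81 ± 0.271 CPM per kb. Library ranges of these 3 genes did not overlap. Adamts7, Adamts4 and Adamts6 came next, at 2.22 ± 0.136, 2.16 ± 0.207 and 1.89 ± 0.115 CPM per kb, with overlapping ranges between neighbours. Adamts5 and Adamts2 also overlapped, at 0.799 ± 0.00976 and 0.771 ± 0.0643 CPM per kb. Adamts12 was at 0.411 ± 0.108 CPM per kb, and Adamts15 was the lowest at 0.151 ± 0.0152 CPM per kb.

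At the end of the noradrenaline exposure this order was different. Adamts1 took the first place at 58.6 ± 2.48 CPM per kb, ahead of Adamts10 (14.3 ± 0.975), Adamts4 (9.28 ± 0.164) and Adamts9 (8.63 ± 0.370). The summed level of the 10 genes was 34.9 ± 1.87 CPM per kb in controls, 96.5 ± 3.99 at 90 min and 36.2 ± 2.53 at 3 days. Adamts1 alone held 8.07% ± 1.15, 60.7% ± 0.274 and 8.22% ± 0.249 of it. By coding length in place of transcript length the Adamts1 shares were 9.42% ± 1.29, 63.6% ± 0.165 and 9.64% ± 0.266, and Adamts7 moved from the fourth to the seventh place in controls. Adamts5 and Adamts2, alike per kb of transcript, differed by this measure, at 3.09 ± 0.0378 and 1.54 ± 0.128 CPM per kb in controls. The order of lower members thus depends on the length used.

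**Figure D1:**
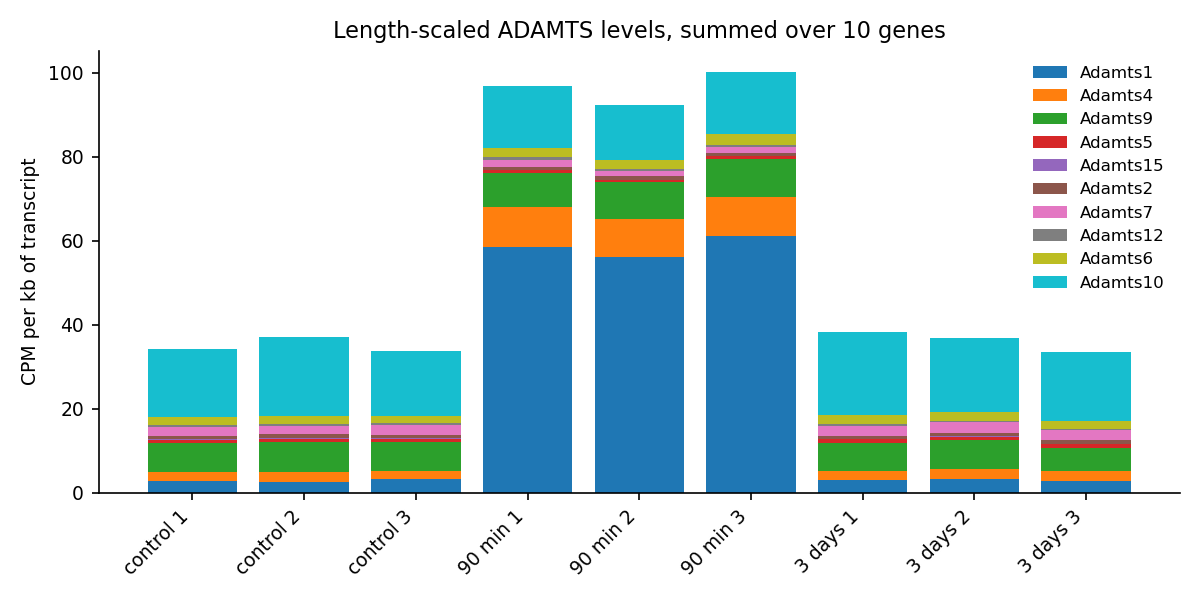
Length-scaled level of the 10 ADAMTS genes, in CPM per kb of transcript, stacked for each of the 9 libraries. The 3 bars at 90 min average 96.5 CPM per kb against 34.9 in controls and 36.2 at 3 days, and Adamts1 makes up 60.7% of them.

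The first comparison asks how these genes stood after 90 min with noradrenaline. Of the 10 genes, all of which passed the count filter, 3 rose (Adamts1, Adamts4 and Adamts9) and 4 fell (Adamts5, Adamts7, Adamts10 and Adamts15) in edgeR's quasi-likelihood test at an adjusted p below 0.05. Over all 13090 genes tested, 33.0% were called, 17.5% higher and 15.5% lower, and because the members were chosen with this comparison known nothing is read from their share. Their median log2 fold change was 0.14, beside −0.00 over all genes, with a range of −1.93 to 4.38. Every CPM value from here on is a level of 1 gene without length scaling, and fold changes and standard errors (SE) are from the fit.

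**Figure D2:**
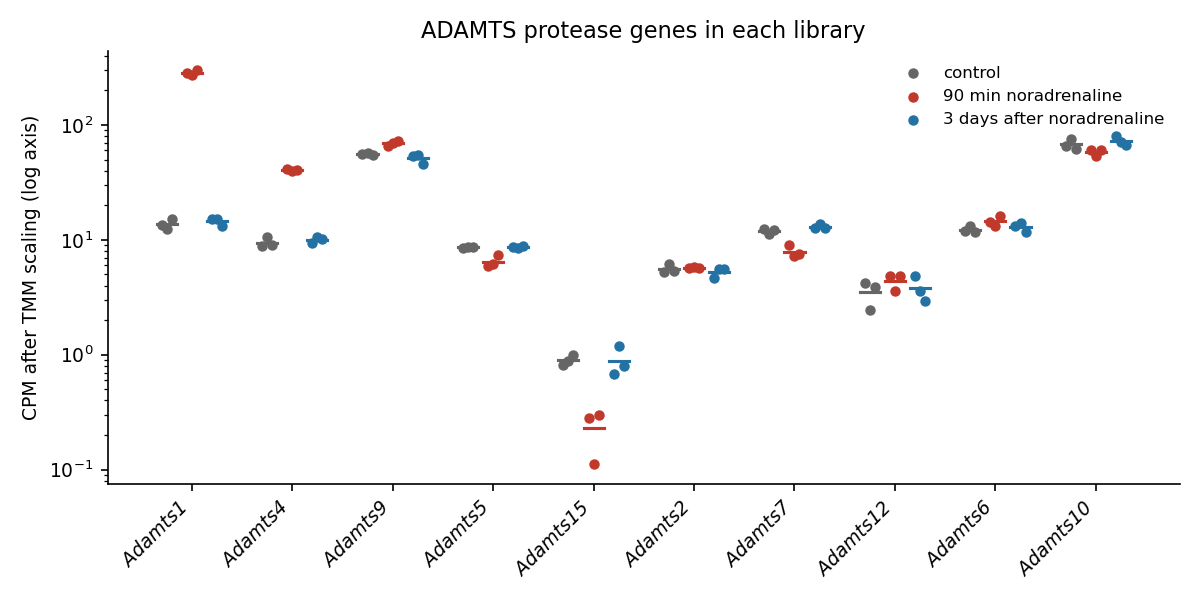
CPM of each ADAMTS gene in each library, on a log axis. Points are libraries, short lines are group means of 3 libraries, and colours are the groups. The 90 min points of Adamts1 and Adamts4 stand above all others of those genes, and those of Adamts15 stand below.

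Of the 5 hyalectan-cleaving enzymes 3 were called higher and 2 lower, beside 17.5% and 15.5% over all genes. As for the members as a whole, nothing is read from this share. Adamts1 (Entrez 11504), a protease that cuts versican and aggrecan, was at 13.4, 12.5 and 15.1 CPM in controls 1 to 3. At 90 min it was at 286, 274 and 299 CPM. The lowest 90 min library thus lay far above the highest control, and the spread within each group was small beside the gap. The rise was 20.9-fold (log2 4.38, SE 0.07, edgeR adjusted p = 1.97e-18), the 23rd highest log2 fold change of the 13090 genes.

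Adamts4 (Entrez 240913), whose enzyme cleaves aggrecan and brevican, was at 8.85, 10.5 and 9.02 CPM in controls and at 41.3, 39.9 and 41.0 CPM at 90 min. The groups did not overlap. The rise was 4.31-fold (log2 2.11, SE 0.08, edgeR adjusted p = 4.63e-13), less than for Adamts1. Adamts9 (Entrez 101401), whose enzyme also cuts versican, went from 55.8, 56.8 and 55.3 CPM to 66.0, 69.7 and 71.9 CPM. This was a small rise in a gene that was already abundant, 1.24-fold (log2 0.31, SE 0.06, edgeR adjusted p = 0.000643), again without overlap.

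Adamts5 and Adamts15 fell. Adamts5 (Entrez 23794), the other main aggrecan-cleaving enzyme beside Adamts4, was at 8.53, 8.73 and 8.59 CPM in controls and at 5.87, 6.22 and 7.33 CPM at 90 min (log2 −0.41, SE 0.11, edgeR adjusted p = 0.00729). All 3 treated libraries were below all 3 controls, while Adamts4 moved the other way in the same libraries. Adamts15 (Entrez 235130) had 15, 14 and 16 counts in controls and 5, 2 and 5 counts at 90 min (log2 −1.93, SE 0.46, edgeR adjusted p = 0.00312). It was the least expressed member, and it passed the filter through the control and 3 day libraries. The ratio of control to 90 min from the summed counts, 45 against 12, was 3.90 with an exact 95% interval of 2.03 to 8.10, which covers counting error only. Because the gene was kept through the groups where it was higher, neither the p-value nor this interval is independent evidence of a fall.

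Among the enzymes linked to cartilage oligomeric matrix protein, Adamts7 fell and Adamts12 was not called. Adamts7 (Entrez 108153) was at 12.5, 11.1 and 12.2 CPM in controls and at 9.003, 7.17 and 7.51 CPM at 90 min, without overlap (log2 −0.60, SE 0.10, edgeR adjusted p = 0.000195). Adamts12 (Entrez 239337) ranged from 2.47 to 4.21 CPM in controls and from 3.56 to 4.87 CPM at 90 min, so its groups overlapped (log2 0.31, SE 0.21, edgeR adjusted p = 0.299). Its log2 value was as large as that of Adamts9, but its error was wider.

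The procollagen and fibrillin-associated enzymes moved little. Adamts2 (Entrez 216725), which removes the amino-terminal propeptide of fibrillar procollagens, ranged from 5.29 to 6.14 CPM in controls and from 5.65 to 5.83 CPM at 90 min (log2 0.04, SE 0.13, edgeR adjusted p = 0.866). Adamts6 (Entrez 108154) was at 11.98, 13.1 and 11.7 CPM in controls and at 14.4, 13.2 and 16.04 CPM at 90 min (log2 0.25, SE 0.10, edgeR adjusted p = 0.0615). Its ranges were separated by a narrow gap, and it missed the threshold. Without 90 min library 2 it passed (log2 0.31, edgeR adjusted p = 0.0308).

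Adamts10 (Entrez 224697), the most abundant member in controls, was at 65.1, 76.2 and 61.9 CPM in controls and at 60.1, 53.3 and 60.1 CPM at 90 min. The groups were separated by less than the spread within either of them. The log2 fold change was −0.23 (SE 0.08, edgeR adjusted p = 0.0339). The call was lost without control 2 (log2 −0.14, edgeR adjusted p = 0.222) and without 90 min library 2 (log2 −0.17, edgeR adjusted p = 0.144).

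Marker genes moved in both directions at 90 min. Of 9 astrocyte markers, 2 were called higher and 4 lower, beside 17.5% and 15.5% over all genes. The connexin gene Gja1 rose from 55.5 ± 5.39 to 106 ± 3.20 CPM and the glutamate transporter gene Slc1a3 from 131 ± 1.42 to 188 ± 5.93 CPM, while the regulator gene Sox9 fell from 248 ± 6.60 to 141 ± 1.84 CPM. Pericyte and smooth muscle markers summed to 736 to 745 CPM in controls and 503 to 569 CPM at 90 min. Most of that difference was the receptor gene Pdgfrb (390 ± 2.21 and 199 ± 10.4 CPM). Cspg4 was also called lower (4.28 ± 0.377 and 2.95 ± 0.336 CPM, edgeR adjusted p = 0.0152). The contractile genes Acta2 (179 ± 4.88 and 175 ± 13.2 CPM) and Tagln (165 ± 1.14 and 159 ± 11.5 CPM) were not called. Ependymal markers summed to 74.1 to 81.1 CPM and 31.7 to 37.9 CPM, nearly all of it the cilia factor gene Foxj1. Other lists held called rises: Foxc1 (log2 1.17) and Pdpn (log2 0.66) of the fibroblast and meningeal markers, the myelin gene Mbp (log2 0.80) and the endothelial receptor gene Flt1 (log2 0.53), beside a fall of the endothelial receptor gene Tek (log2 −0.66). The part of these shifts in the ADAMTS values was not tested.

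The second comparison asks what was left of these changes 3 days after the exposure. None of the 10 genes was called against controls by edgeR, none had an unadjusted p under 0.05, and DESeq2 called none either. Over all genes 0.115% were called, 0.0382% higher and 0.0764% lower. Of the 13090 genes tested, 1221 had an unadjusted edgeR p under 0.05. Nothing is therefore read from the absence of such a p among the 10 members. The log2 fold changes of the members lay between −0.12 (Adamts9) and 0.12 (Adamts7), with a median of 0.08 beside 0.00 for all genes.

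Adamts1 was at 15.1, 15.3 and 13.2 CPM at 3 days, within and around the control range (log2 0.08, SE 0.08, edgeR adjusted p = 0.822). Adamts4 was at 9.30, 10.5 and 10.1 CPM (log2 0.08, SE 0.09, edgeR adjusted p = 0.857). Both had thus lost nearly all of the difference seen at 90 min, and their ranges overlapped those of the controls. Adamts15 was back at 13, 21 and 15 counts (log2 −0.01, SE 0.34), and Adamts5 at 8.73, 8.51 and 8.89 CPM (log2 0.02, SE 0.11).

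Ranges of 2 members did not overlap those of the controls at 3 days. Adamts7 was at 12.7, 13.7 and 12.8 CPM, above the controls (log2 0.12, SE 0.10, edgeR adjusted p = 0.763). Adamts9 was at 53.4, 55.1 and 45.7 CPM, below them (log2 −0.12, SE 0.06, edgeR adjusted p = 0.564). By this criterion 8.03% of all genes stood above and 8.12% below, so the 1 member in each direction was close to the share over all genes. Adamts10 was at 80.7, 71.0 and 66.4 CPM, overlapping the controls (log2 0.10, SE 0.08, edgeR adjusted p = 0.728).

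**Figure D3:**
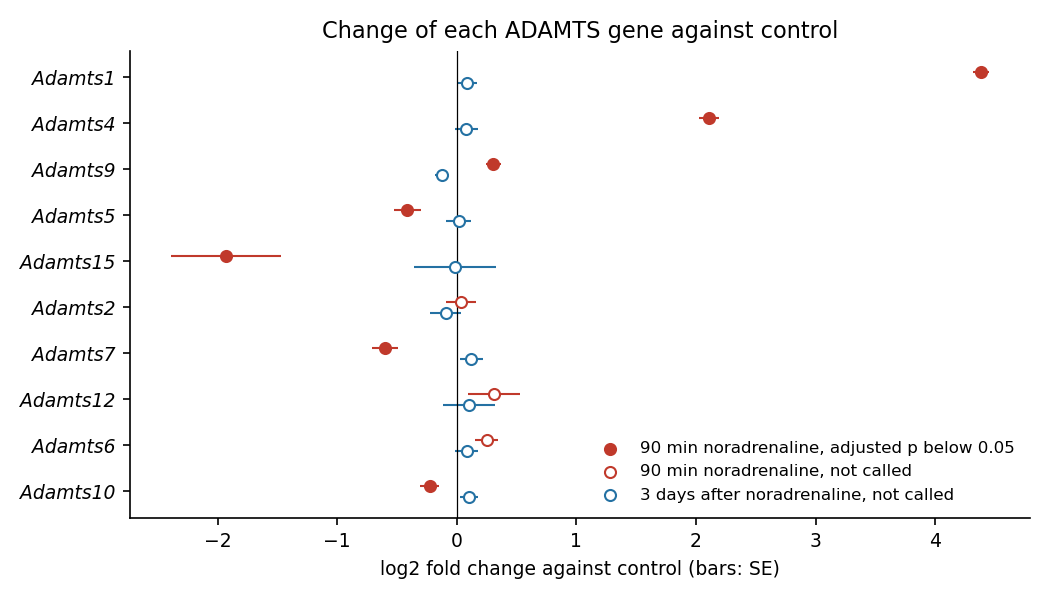
Log2 fold change of each ADAMTS gene against control at 90 min (red) and at 3 days (blue), with bars of 1 SE, and filled points for an adjusted p below 0.05. The 90 min values run from −1.93 (Adamts15) to 4.38 (Adamts1), while all 3 day values lie between −0.12 and 0.12. Both series share the same 3 controls.

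The third comparison sets 3 days directly against 90 min, with the controls entering only the filter, the scaling and the estimate of the spread. Adamts5, Adamts7, Adamts10 and Adamts15 were higher at 3 days and Adamts1, Adamts4 and Adamts9 lower, which makes 4 and 3 of 10. Over all genes 39.0% were called, 18.7% higher and 20.4% lower. Adamts1 was 19.7-fold lower (log2 −4.30, SE 0.06, edgeR adjusted p = 2.13e-18) and Adamts4 4.08-fold lower (log2 −2.03, SE 0.08, edgeR adjusted p = 5.78e-13). In the other direction Adamts7 differed by 1.65-fold (log2 0.72, SE 0.10, edgeR adjusted p = 2.07e-05) and Adamts10 by 1.26-fold (log2 0.33, SE 0.08, edgeR adjusted p = 0.00247). The 7 genes called here are the 7 called at 90 min, each in the opposite direction. Both comparisons use the same 90 min libraries.

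The remaining members of the enzyme family were mostly silent. Of 9 other ADAMTS enzyme genes, 7 had at most 6 counts in any library, among them Adamts16 and Adamts18 with 0 in all 9. The exceptions were Adamts14, a procollagen propeptidase gene like Adamts2, and Adamts17. Adamts14 was at 7.41 ± 0.386 CPM in controls and 9.57 ± 1.73 CPM at 90 min (log2 0.37, SE 0.15, edgeR adjusted p = 0.0746). It passed the threshold in 4 alternatives, with adjusted p of 0.0242 without a count filter, 0.0433 in a fit of the pair of groups, 0.0306 without 90 min library 2 and 0.0383 without 3 day library 3. Adamts17, below 1 CPM on average, was not called (log2 −0.48, edgeR adjusted p = 0.345).

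ADAMTS-like proteins carry the repeats but lack the protease domain. Of 7 such genes tested, 1 rose and 1 fell at 90 min (median log2 0.01), beside 17.5% higher and 15.5% lower over all genes. Adamtsl4, whose product binds fibrillin, went from 42.7 ± 0.322 to 50.7 ± 1.77 CPM (a log2 change of 0.25 with an SE of 0.05, edgeR adjusted p = 0.00110). Adamtsl5 went from 20.3 ± 0.968 to 17.5 ± 0.821 CPM (a log2 change of −0.22 with an SE of 0.08, edgeR adjusted p = 0.0477). That call was lost without controls 1, 2 or 3 (edgeR adjusted p = 0.0576, 0.170 and 0.0817), without 90 min library 2 or 3 (0.139 and 0.0922) and without 3 day library 2 (0.0563). It was also lost with the replicate number as a block (0.0730), without a count filter (0.0559) and with DESeq2 (DESeq2 adjusted p = 0.0941).

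Of the inhibitors of these enzymes, 0 of 5 tested genes were called by edgeR at 90 min, of a list of 6. Over all genes 33.0% were called, so little can be read from a list this short. Timp3, the tissue inhibitor known to act on ADAMTS enzymes, went from 1618 ± 66.0 to 1524 ± 5.05 CPM (a log2 change of −0.09 with an SE of 0.04, edgeR adjusted p = 0.108). Timp2 went from 1955 ± 46.8 to 2074 ± 50.7 CPM (a log2 change of 0.09 with an SE of 0.04, edgeR adjusted p = 0.0830) and Timp1 from 47.9 ± 2.06 to 53.2 ± 5.15 CPM (a log2 change of 0.15 with an SE of 0.08, edgeR adjusted p = 0.159). Timp4 was at 1.32 ± 0.159 and 1.08 ± 0.218 CPM (log2 −0.27, edgeR adjusted p = 0.532). Without 90 min library 3, Timp1 (log2 0.22, edgeR adjusted p = 0.0390) and Timp2 (log2 0.10, edgeR adjusted p = 0.0355) passed the threshold. At 3 days the 4 Timp genes had log2 values of −0.15, −0.00, −0.03 and 0.33 against controls, none of them called.

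Receptors and anchors at the cell surface gave 2 called genes of 5, both higher, beside 17.5% higher over all genes. Sdc4, the syndecan gene whose proteoglycan is known to bind Adamts4 and Adamts5 proteins, went from 562 ± 8.13 to 773 ± 29.0 CPM (a log2 change of 0.46 with an SE of 0.04, edgeR adjusted p = 4.12e-08). Sdc1 also rose, with 256 ± 10.2 CPM in controls and 306 ± 33.3 CPM at 90 min (log2 0.26, SE 0.06, edgeR adjusted p = 0.00395). Lrp1, the endocytic receptor that clears ADAMTS enzymes, was at 2424 ± 149 and 2391 ± 194 CPM (log2 −0.02, edgeR adjusted p = 0.848). Of the enzymes that mature the proteases 1 of 6 rose, Pofut2, which fucosylates thrombospondin repeats (log2 0.25, SE 0.04, edgeR adjusted p = 0.000161). The convertase gene Furin was at 172 ± 5.20 and 169 ± 1.48 CPM (log2 −0.02, edgeR adjusted p = 0.695).

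Substrates and the hyaluronan network rose in 7 of 27 tested genes at 90 min and fell in 0 (median log2 0.03), beside 17.5% higher and 15.5% lower over all genes. None of the 3 tested hyalectan genes was called. Versican (Vcan), by far the most abundant of them, was at 1117 ± 44.3 CPM in controls and 1145 ± 95.2 CPM at 90 min (log2 0.03, SE 0.06, edgeR adjusted p = 0.704). Brevican (Bcan), a substrate of Adamts4, was at 3.37 ± 0.974 and 3.03 ± 0.622 CPM (log2 −0.17, edgeR adjusted p = 0.631), and aggrecan (Acan) did not pass the count filter.

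The risen genes were led by the hyaluronan synthase gene Has2, which went from 1.62 ± 0.0820 to 5.87 ± 1.47 CPM (a log2 change of 1.84 with an SE of 0.21, edgeR adjusted p = 1.51e-06). Thbs1, a thrombospondin gene, rose 1.25-fold from 1364 ± 85.9 CPM (log2 0.32, SE 0.05, edgeR adjusted p = 4.35e-05). Col2a1, a fibrillar procollagen gene, rose 1.21-fold from 103 ± 2.98 CPM (log2 0.27, SE 0.04, edgeR adjusted p = 4.03e-05), the only call among 6 such genes. The other 4 risen genes, Tnc, Cd44, Fn1 and Thbs2, had folds between 1.08 and 1.20. The call of the fibronectin gene Fn1 was lost without control 1 or 2 and without 90 min library 1 or 3 (edgeR adjusted p = 0.160, 0.100, 0.0509 and 0.155), and by DESeq2 (DESeq2 adjusted p = 0.158). The call of the thrombospondin gene Thbs2 was lost without control 1 or 2 and without any 1 of the 90 min libraries (edgeR adjusted p of 0.0511 to 0.149), and was 0.0671 with the replicate number as a block. Without 90 min library 3, 2 genes of this list were called lower, against 0 with all libraries.

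Among the other matrix protease, ADAM and plasminogen system genes 6 of 22 were called higher and 1 lower (median log2 0.07). This called share was close to the 33.0% over all genes. The 4 genes of the plasminogen system reported here rose. The activator gene Plau went from 0.642 ± 0.141 to 2.17 ± 0.0489 CPM (a log2 change of 1.76 with an SE of 0.29, edgeR adjusted p = 0.000102) and the activator gene Plat from 133 ± 5.18 to 249 ± 3.66 CPM (a log2 change of 0.91 with an SE of 0.04, edgeR adjusted p = 4.96e-12). The receptor gene Plaur rose 1.63-fold (log2 0.70, SE 0.10, edgeR adjusted p = 1.77e-05). The smallest of the 4 rises, that of the protease inhibitor gene Serpine2 (log2 0.13, edgeR adjusted p = 0.0355), lost its call without control 1 or 2 (0.108 and 0.117), without 90 min library 1 or 2 (0.122 and 0.173) and without 3 day library 1 (0.0514). With the replicate number as a block its edgeR adjusted p was 0.0752, and in a fit of the pair of groups 0.0658. Of 10 matrix metalloprotease genes, Mmp3 rose (log2 0.48, edgeR adjusted p = 0.000496) and Mmp11 fell (log2 −0.69, edgeR adjusted p = 3.25e-06).

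**Figure D4:**
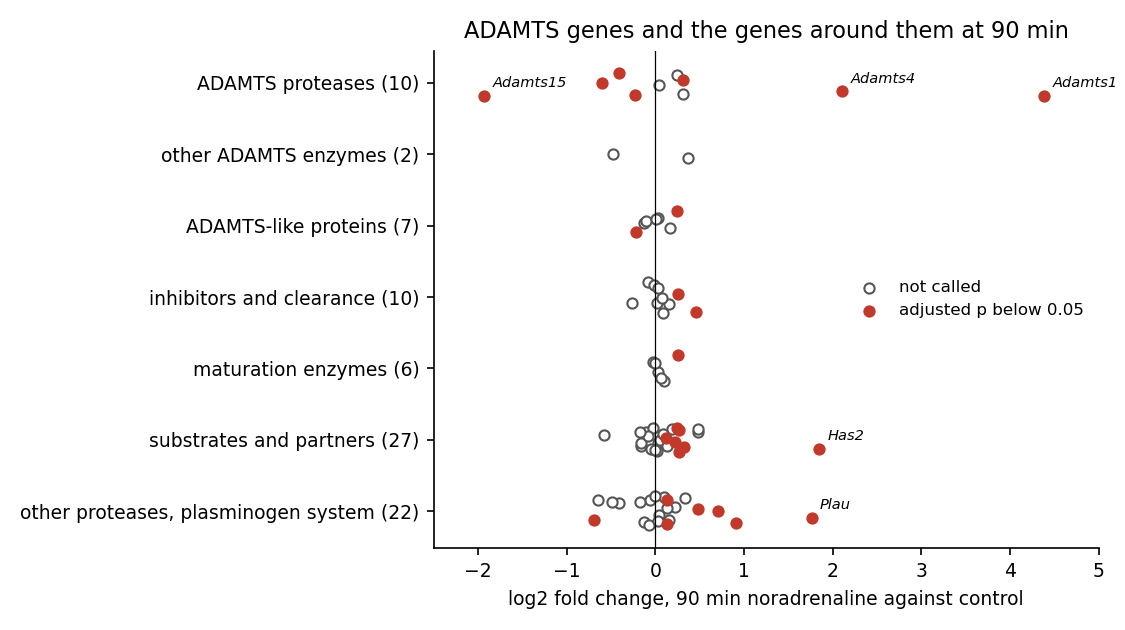
Log2 fold change at 90 min against control for the 10 ADAMTS genes and the tested genes of 6 related lists, 1 point per gene, with the number tested in brackets and red points for an adjusted p below 0.05. Adamts1 at 4.38 and Adamts4 at 2.11 lie at the right edge, with Has2 at 1.84 and Plau at 1.76 to their left. Vertical scatter within a row carries no meaning.

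At 3 days no gene of these related lists was called by edgeR, while among the marker genes the smooth muscle actin gene Acta2 was lower (log2 −0.30, edgeR adjusted p = 0.0373). That call was lost without control 1, 2 or 3, without 3 day library 1 or 2 and with the replicate number as a block (edgeR adjusted p of 0.111 to 0.242). The procollagen genes Col1a1 (log2 −0.35, edgeR adjusted p = 0.118) and Col1a2 (log2 −0.24, edgeR adjusted p = 0.119) and the inhibitor gene Reck (log2 0.18, edgeR adjusted p = 0.121) came nearest. DESeq2 called 3 genes of the substrate list lower and 1 gene of the inhibitor list higher. Col1a2, Thbs1 and Reck were among them (DESeq2 adjusted p = 0.00507, 0.0405 and 0.0241). Without 90 min library 3, which enters only through the shared fit, edgeR also called Col1a1, Col1a2 and Reck (edgeR adjusted p = 0.0190, 0.0206 and 0.0374). The same genes were called without a count filter (1.45e-08, 0.000160 and 0.0146) and in a fit of the pair of groups (0.0122, 0.0229 and 0.0424). Without 90 min library 2 Col1a1 and Col1a2 were called (0.0176 and 0.0443), and Thbs1 was called lower without a count filter (0.0288).

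Likeness of profile was measured as the Euclidean distance between log2 CPM over the 9 libraries, each gene taken relative to its control mean. Predicted genes, pseudogenes, clone names and rows without a symbol were left out of the ranking. The ranking used these same libraries, so the nearness of the fold changes below follows from it. Nearest to Adamts4 were Smim3, the stress kinase gene Ern1, the arrestin-like gene Arrdc3, the clock gene Per1 and the splicing factor gene Cwc25, at distances of 0.24 to 0.30. Their 90 min log2 fold changes lay between 2.07 and 2.16, beside 2.11 for Adamts4. Nearest to Adamts1 were the AP-1 gene Fosb, Zdbf2, the glutamate transporter gene Slc1a1, the bZIP factor gene Maff and the uncoupling protein gene Ucp1, at distances of 0.78 to 0.92. Fosb rose 18.4-fold, Slc1a1 23.4-fold and Maff 14.96-fold at 90 min, beside 20.9-fold for Adamts1. Zdbf2 and Ucp1 were at 0 in every control and at 2.45 ± 0.620 and 1.57 ± 0.213 CPM at 90 min, and their distance depends on the prior count of 2 added before the logarithm.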

How the data were processed

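The authors deposited 1 table of estimated counts per gene with Entrez identifiers and symbols. The tools named, per the submitters' processing notes, are Salmon 1.8.0 and fastp 0.23.4, and the build is mm39. For the annotation release, the summing to genes, strand and any rounding, the labels are silent: not given in the sources used here. The deposited values were all whole, so rounding changed none. Salmon shares reads between similar transcripts, which makes values of near-identical or overlapping genes uncertain.

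Groups and replicate numbers came from the titles. In R 4.3.3, edgeR 4.0.16 was run on all 9 libraries (filterByExpr, minimum count 10, minimum total 15, 13090 genes kept, TMM, 1 coefficient per group, quasi-likelihood test, Benjamini-Hochberg adjustment over all genes, called below 0.05). SE was taken as the absolute log2 fold change over √F. The fit was checked on simulated counts. Replicates differed beyond sampling noise (chi-square per degree of freedom 2.40 to 7.13). Transcript lengths came from GENCODE vM21, and promoter letters from RefSeq on GRCm38.p6, an older build than mm39, read independently of the counts. Alternatives were RLE factors, no or a stricter filter (above 1 CPM in 3 libraries), DESeq2 1.42.0, a fit of the pair of groups, a replicate block and leaving out each library.

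The members and lists were chosen with earlier results of these data known. By rule the text names all members, the Timp genes, up to 3 called genes per related list with the largest change at 90 min, every list gene called at 3 days and the 5 nearest profiles of Adamts1 and Adamts4. Other genes were named after their values were seen. An item of the list of other proteases is not reported here, and the counts of that list leave it out.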

Additional observations from a re-analysis of the deposited data

Results flagged for a closer look

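Effects against the shared controls differed between 90 min and 3 days for 7 of the 10 ADAMTS genes. The edgeR test of 3 days against 90 min, given above, is the test of that difference. It called 39.0% of all genes. The members were chosen with earlier fold changes at both times known, so nothing is read from their share. The log2 effect at 3 days minus that at 90 min was −4.30 for Adamts1, −2.03 for Adamts4 and −0.43 for Adamts9 (edgeR adjusted p = 2.13e-18, 5.78e-13 and 1.79e-05). It was 1.92 for Adamts15, 0.72 for Adamts7, 0.43 for Adamts5 and 0.33 for Adamts10 (edgeR adjusted p = 0.00262, 2.07e-05, 0.00448 and 0.00247). Adamts15 passed the count filter through the control and 3 day libraries, so its value is description only. In each of these genes every 3 day library lay on 1 side of every 90 min library. The same held for Adamts2, which was not called (edgeR adjusted p = 0.458). The share of all genes separated in this way was not counted, so nothing is read from it. Single values far from their group were not tested for, since groups of 3 are too small.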

How the results depend on the processing

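The number of ADAMTS genes called was 7 at 90 min, 0 at 3 days and 7 between the times, and it was 6 to 7, 0 and 6 to 7 under every alternative run. Adamts15 was not tested under the stricter filter, which gives a 6 in both, and Adamts10 lost its call without control 2, which gives the other 6. Without 90 min library 2 the count at 90 min stayed at 7 with other genes, since Adamts10 lost its call and Adamts6 gained one. No direction of a called gene named in the text was reversed. The count over all genes at 3 days was 15, and became 205 without a count filter, 76 in a fit of the pair of groups, 68 with DESeq2 and 3 with the replicate block. Leaving out 1 library gave 0 to 83 genes there (0 without control 2, 83 without 90 min library 3). It gave 3534 to 4494 at 90 min, against 4320, and 4266 to 5319 between the times, against 5110. The cause was not tested. Replicate numbers did not pair the libraries: the correlation of deviations from the group mean was −0.414 to 0.0473 for equal numbers and −0.203 to 0.307 for different ones, and not every library correlated best with its own number. With the replicate block 3907 genes were called at 90 min and 4662 between the times, with 7, 0 and 7 ADAMTS genes. Depth limits Adamts15, at 2 to 21 counts per library.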

Other observations

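Adamts1 and Adamts5 are neighbours on mouse chromosome 16, with 0 protein-coding genes and 1 annotated non-coding gene between them in RefSeq, and they were called in opposite directions at 90 min (log2 4.38 and −0.41). Adamts15, which fell (log2 −1.93), lies beside Adamts8 on chromosome 9 with 0 annotated genes between them, and Adamts8 had at most 4 counts in any library.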
